A study of Mus musculus with 6 samples.

Results

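Skeletal muscle genes were examined in RNA-seq of brown adipose tissue (BAT) from 3 WT mice and 3 sST2-KO mice. The genes are 37 of the 35976 rows of the count table, and they were chosen by name as genes of sarcomere proteins, their calcium handling and myogenic regulators. They fall into 13 genes of fast fibers, 6 of slow fibers, 11 used by both fiber types, 2 myosins of the developing muscle and 5 myogenic regulators. All mice had a C57BL/6J background, had been operated on at 10 weeks of age to denervate the BAT, and were kept at 30 °C for 7 days and then at 10 °C for 8 h. The sST2-KO mice, labelled ST2-KO, were made by deleting, within Il1rl1, the intron that separates exon 8 from exon 9, a change meant to remove the soluble form sST2 and to leave the receptor form ST2L, and the WT mice were their littermates. Since both groups were denervated and cooled, the groups differ in genotype, and denervation and cold are common to all 6 libraries. Libraries are named by group and replicate number, and values of a group are given in the order of replicates 1, 2 and 3.

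The sarcomere is the contractile unit of striated muscle, in which thick filaments of myosin pull on thin filaments of actin. Troponin and tropomyosin on the thin filament hold myosin off until calcium binds troponin C, while the giant proteins titin and nebulin set the length of the filaments. Fast fibers and slow fibers build the same machine from different paralogs, so that most subunits exist as a fast gene and a slow gene. Brown adipocytes and skeletal muscle share a developmental origin in Myf5-expressing precursors, and interscapular BAT lies directly on skeletal muscle of the back. Brown adipocytes are not known to build sarcomeres.

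The libraries held 8159442 to 12874809 counts, and levels are given as normalized CPM, the counts of a gene over those of its library, scaled by edgeR's TMM method. A gene was called when edgeR's quasi-likelihood test gave an adjusted p under 0.05 over the 14542 genes tested and a fold change above 2. Single values per library were compared by an exact two-sided permutation test over samples, whose smallest possible p is 0.1 with 3 mice per group. The targeted gene Il1rl1 had 19, 19 and 6 counts in WT and 55, 69 and 142 in sST2-KO, with a log2 fold change of 2.56 ± 0.57 (SE; adjusted p = 0.0239, edgeR). The count covers both forms of the transcript and so does not check the deletion. Without WT replicate 1, Il1rl1 was not called (adjusted p = 0.0515, edgeR). The summed level of 11 brown adipocyte markers was 8220 to 15550 CPM in WT and 353 to 1882 CPM in sST2-KO. Of these genes, 8 were called lower, where 7.1% of all genes tested were.

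Some libraries stood apart. WT replicate 1 had the highest muscle gene levels of the WT libraries, for 34 of the 37 genes. WT replicate 2 held liver transcripts, with 5195 CPM summed over 8 liver genes against 10.6 to 52.9 CPM in the other 5 libraries. Of all 6 libraries, sST2-KO replicate 3 was highest in 37 of the 37 muscle genes, and it also held 4783 CPM of 6 macrophage genes against 449 to 1139 CPM elsewhere. Values without single libraries are given for many of the results that they change, and not for all.

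Transcripts of the 37 genes took 0.207%, 0.0477% and 0.0343% of the counts in WT and 0.958%, 0.50% and 2.16% in sST2-KO. Every sST2-KO library was above every WT library in this share. The filter on low counts left 34 genes for the test, without Myod1, Myf5 and Pax7. Of these, 11 were called higher in sST2-KO and 0 lower, where 9.04% and 7.1% of all genes tested were called higher and lower. The 11 were Myl1, Pvalb, Casq1, Myoz1, Mb, Tpm1, Tpm2, Tpm3, Myh3, Myh8 and Myog. All 34 log2 fold changes were positive, from 1.24 to 5.13, with a median of 3.97 against 0.03 for all genes tested. Another 10 genes had an adjusted p between 0.05 and 0.1 and 13 had a higher one. Under DESeq2, 18 were called higher and 0 lower, where 11.0% and 8.8% of all genes were. With total counts in place of TMM, 14 were called higher and 0 lower, where 12.7% and 4.75% of all genes were, and the median of all genes moved to 0.29.

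Values of the groups did not overlap for 28 of the 34 genes tested, where 21.8% of all genes tested lay wholly higher in sST2-KO. The 6 genes with overlap were the 6 slow fiber genes. The called genes Tpm3, Mb, Myl1 and Tpm1 had the smallest standard errors of the 34, from 0.30 to 0.38. When WT replicate 1 was left out, 28 of the 34 genes were called higher, where 7.47% of all genes were called higher and 6.74% lower, and the median log2 fold change was 7.99. That median was 7.65 with 6 genes at 0 in both remaining WT libraries set to the lower bound that 3 counts allow. Without WT replicate 2, only Casq1 was called among them, and without WT replicate 3, 0 were called and 21 had an unadjusted p under 0.05 (edgeR). In bulk tissue, a change in the number of muscle cells and a change in RNA per cell cannot be told apart.

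**Figure D1:**
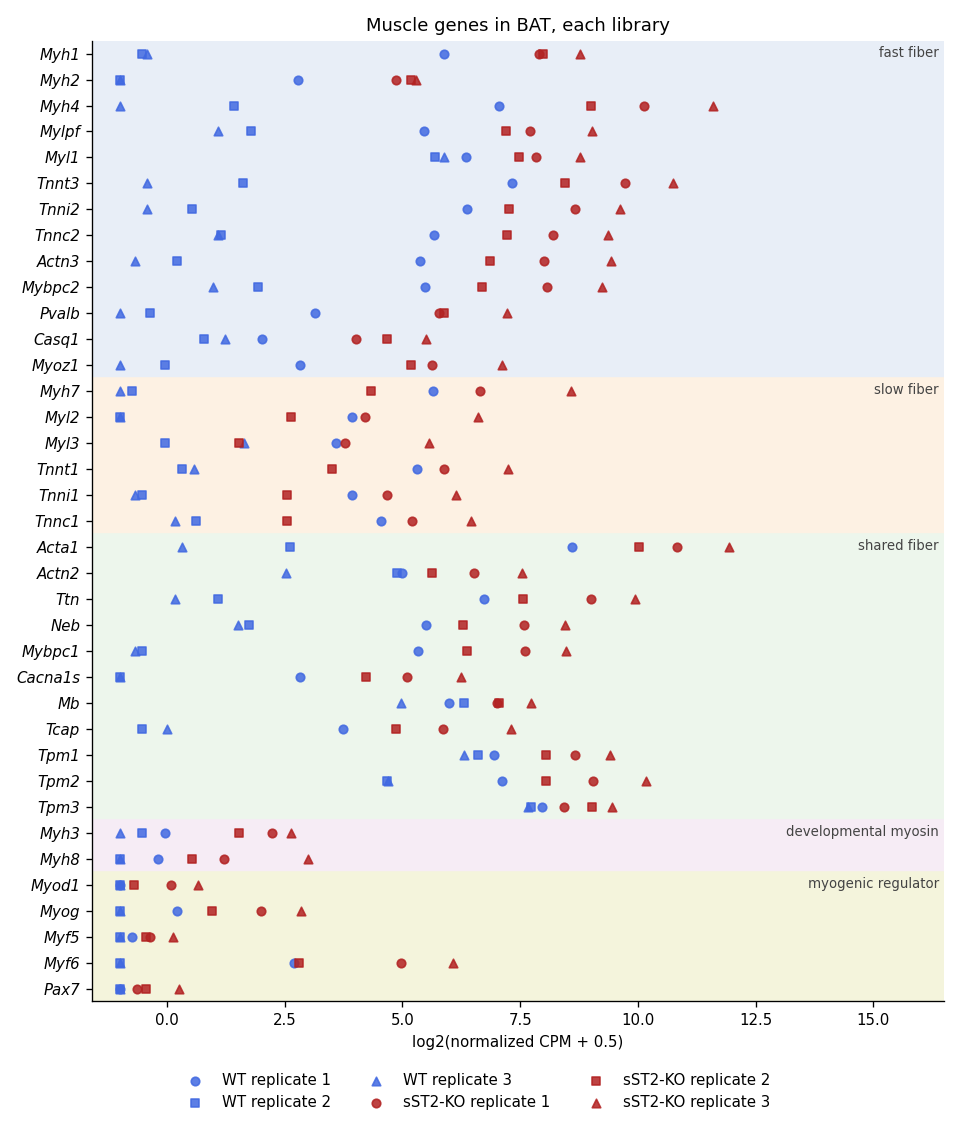
Level of each of the 37 genes in each library as log2(normalized CPM + 0.5), with WT in blue and sST2-KO in red and the replicate number as the marker shape. WT replicate 1 lies above the other WT libraries for 34 genes, and sST2-KO replicate 3 is the highest library for all 37.

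**Figure D2:**
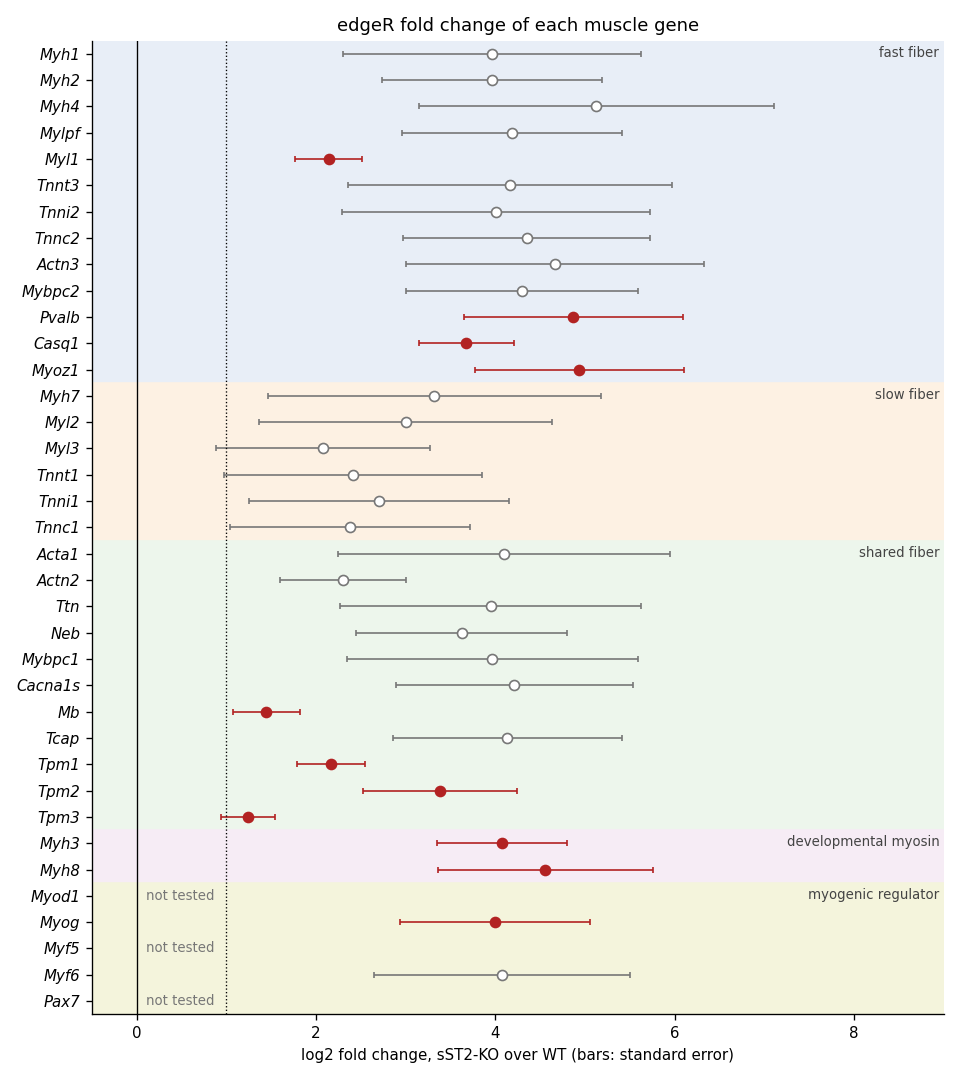
Log2 fold change of sST2-KO over WT with its standard error for the 34 genes tested, grouped by class, with the 11 called genes filled in red and the dotted line at a 2-fold difference. Called genes such as Tpm3 (1.24) have short error bars, whereas Myh4 has the largest fold change (5.13) and a long one.

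Myogenic factors bind the E-box CAGCTG, and factors of the MEF2 family bind an A and T rich site, in the promoters of many sarcomere genes. RefSeq promoters on GRCm38.p6, each taken as the 250 bases before a gene's start, were found for 29 of the 37 genes, which gave 36 promoters since some genes have several starts. The letters CAGCTG, which read the same on both strands, stood in 14 of the 36 (38.89%) and in 4271 of all 32851 promoters in the table (13.0%). By class, these were 4 of 10 promoters of fast fiber genes, 3 of 9 of slow fiber genes, 7 of 12 of shared genes and 0 of 5 of the developmental myosins and regulators. The 14 promoters belong to 12 genes, since overlapping promoters of Mb, and likewise of Tnni1, hold the same site. For MEF2, only a strict pattern was searched, CTA, then 4 letters that are each A or T, then TAG, which covers both strands. It was found in the promoter of Ttn alone among these genes and in 0.51% of all promoters. Looser forms of the MEF2 site were not searched, so promoters without a match here can hold them. The motifs do not overlap each other in these promoters, and a match is a description of the letters and not a measured binding site. A fast fiber pair, a slow fiber gene and the promoter of titin are shown, with the motif in capitals and each sequence read 5′ to 3′ on the gene's own strand. The promoter of Myh4 (chr11:67237562-67237811, plus strand) has its E-box starting 67 bases before the start, that of Mylpf (chr7:127211358-127211607, plus strand) 51 bases before it, and that of Tnni1 (chr1:135799171-135799420, plus strand) 68 bases before it. In the promoter of Ttn (chr2:76982548-76982797, minus strand) the MEF2 match starts 166 bases before the start.
Myh4: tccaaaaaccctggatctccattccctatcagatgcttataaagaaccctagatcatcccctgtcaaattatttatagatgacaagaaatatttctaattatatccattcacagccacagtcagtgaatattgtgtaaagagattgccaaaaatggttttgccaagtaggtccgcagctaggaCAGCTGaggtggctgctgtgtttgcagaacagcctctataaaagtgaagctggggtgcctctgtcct
Mylpf: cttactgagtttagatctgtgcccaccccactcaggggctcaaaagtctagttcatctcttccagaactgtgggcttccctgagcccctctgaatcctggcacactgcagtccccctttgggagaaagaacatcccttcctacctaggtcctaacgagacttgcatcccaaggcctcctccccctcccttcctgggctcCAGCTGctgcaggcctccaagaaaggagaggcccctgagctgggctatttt
Tnni1: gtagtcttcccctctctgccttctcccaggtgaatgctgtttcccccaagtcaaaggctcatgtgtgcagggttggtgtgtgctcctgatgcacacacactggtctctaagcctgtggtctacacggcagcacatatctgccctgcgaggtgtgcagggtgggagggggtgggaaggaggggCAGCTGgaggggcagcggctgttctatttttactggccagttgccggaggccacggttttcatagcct
Ttn: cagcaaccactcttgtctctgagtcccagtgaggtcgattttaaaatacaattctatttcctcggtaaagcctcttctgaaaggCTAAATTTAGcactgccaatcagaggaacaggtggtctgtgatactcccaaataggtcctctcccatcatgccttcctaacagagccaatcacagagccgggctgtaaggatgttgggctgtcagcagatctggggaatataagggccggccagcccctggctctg

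Of the 5 classes, the fast fiber genes had the largest mean log2 difference in summed level with 0.5 CPM added. The order depends on this value, since with 0.1 CPM added the difference was 6.13 for the regulators and 4.86 for the fast genes. The sum of the 13 was 717, 67.8 and 66.1 CPM in WT and 4009, 2113 and 9287 CPM in sST2-KO, or 284 ± 375 against 5137 ± 3717 CPM (SD, n = 3). Each sST2-KO library held more than each WT library, and the mean log2 difference was 4.85 (p = 0.1, exact permutation test). Of the 13 genes, 4 were called higher, where 9.04% of all genes tested were. All 13 had groups without overlap, where 21.8% of all genes tested lay wholly higher, and the median log2 fold change was 4.19.

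Myosin heavy chains are the motors of the thick filament, and Myh4, Myh1 and Myh2 encode those of the fast types 2B, 2X and 2A. Myh4 had 132, 2.17 and 0 CPM in WT and 1118, 516 and 3075 CPM in sST2-KO. The groups did not overlap, but the WT libraries differed from each other by more than an order of magnitude, and the log2 fold change of 5.13 ± 1.98 (SE) did not pass the test (adjusted p = 0.106, edgeR). Myh1 had 58.8, 0.189 and 0.247 CPM in WT and 239.8, 251 and 436 CPM in sST2-KO (log2 fold change 3.96 ± 1.66, adjusted p = 0.130, edgeR). Myh2 was at 6.34, 0 and 0 CPM in WT and at the near-equal levels of 28.4, 35.7 and 38.7 CPM in sST2-KO (3.97 ± 1.23, adjusted p = 0.0591, edgeR). With no count in WT replicates 2 and 3, Myh2 was at least 208.8-fold higher in sST2-KO than a floor of 3 counts in these libraries together. That bound leaves out WT replicate 1, and with it the ratio of the group means was 16.2. The fast heavy chains lie in a row on chromosome 11 (GRCm39), Myh2 at chr11:67061838-67088989, Myh1 at chr11:67089132-67116631 and Myh4 at chr11:67128336-67151274, all on the plus strand. Exons of Myh1 and Myh4 overlap the antisense gene Myhas, and the library kit named in the labels does not mark strand, so reads of a gene and of its antisense partner cannot be told apart.

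The fast light chains sit on the neck of myosin. Mylpf, the fast regulatory light chain, had 43.3, 2.92 and 1.60 CPM in WT and 209.6, 147 and 519 CPM in sST2-KO (log2 fold change 4.19 ± 1.23, adjusted p = 0.0506, edgeR). Myl1, the essential light chain of fast fibers, differed from the other fast genes in that all WT libraries held it at similar levels, 81.6, 51.4 and 58.7 CPM. Its sST2-KO levels were 228, 178 and 438 CPM, and it rose by a log2 fold change of 2.14 ± 0.38 (adjusted p = 0.0156, edgeR). Myl1 thus made up most of the fast fiber sum in WT replicates 2 and 3 and a small part of it in WT replicate 1.

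The fast troponins, the calcium switch of the thin filament, showed one pattern across the libraries. Tnnt3, which ties troponin to tropomyosin, had 159, 2.54 and 0.247 CPM in WT and 847, 348 and 1709 CPM in sST2-KO. Tnni2, the inhibitory subunit, had 81.7, 0.942 and 0.247 CPM in WT and 403.5, 153 and 784 CPM in sST2-KO. Tnnc2, the calcium sensor, had 50.4, 1.70 and 1.60 CPM in WT and 292, 149 and 660 CPM in sST2-KO. Each was high in WT replicate 1, near 0 in the other WT libraries and highest in sST2-KO replicate 3. Their log2 fold changes were 4.16 ± 1.81, 4.01 ± 1.71 and 4.35 ± 1.38 (SE), and none passed the test (adjusted p = 0.142, 0.137 and 0.0627, edgeR). Without WT replicate 1, all 3 were called higher, each with an adjusted p of 0.0258 (edgeR), where 7.47% of all genes were called higher.

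Actn3 links thin filaments at the Z-disc of fast fibers, and Mybpc2 is the fast form of the myosin-binding protein C. Actn3 had 40.7, 0.660 and 0.123 CPM in WT and 255.6, 116 and 690 CPM in sST2-KO (log2 fold change 4.67 ± 1.66, adjusted p = 0.0856, edgeR). Mybpc2 had 44.4, 3.30 and 1.48 CPM in WT and 268, 102 and 605 CPM in sST2-KO (4.30 ± 1.29, adjusted p = 0.0544, edgeR). Both fell short of the test while their groups did not overlap. The remaining 3 fast genes rose. Pvalb, a calcium buffer of fast fibers, had 8.30, 0.283 and 0 CPM in WT and 54.1, 58.3 and 148 CPM in sST2-KO (4.87 ± 1.22, adjusted p = 0.0331, edgeR). Casq1, the calcium store protein of the sarcoplasmic reticulum in fast fibers, had 3.54, 1.23 and 1.85 CPM in WT and 15.8, 24.9 and 44.9 CPM in sST2-KO (3.68 ± 0.53, adjusted p = 0.0135, edgeR). Myoz1, a Z-disc protein that binds calcineurin, had 6.53, 0.471 and 0 CPM in WT and 48.6, 35.6 and 139 CPM in sST2-KO (4.94 ± 1.17, adjusted p = 0.0285, edgeR). The call of Casq1 was lost when WT replicate 3 was left out (adjusted p = 0.0614, edgeR), and those of Pvalb and Myoz1 also without WT replicate 2 or sST2-KO replicate 3, and that of Pvalb without sST2-KO replicate 2.

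The 11 genes that both fiber types use summed to 1205, 451 and 346 CPM in WT and 4298, 2669 and 8767 CPM in sST2-KO. The groups did not overlap, and the mean log2 difference was 3.02 (p = 0.1, exact permutation test). Of the 11 genes, 4 were called higher, where 9.04% of all genes tested were, and the median log2 fold change was 3.62. The members split into genes that WT replicates 2 and 3 nearly lacked and genes that all libraries held.

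Acta1, the skeletal muscle actin, was the most abundant of the 37 genes per length in sST2-KO, at a mean of 607 CPM per kb of exon, and had 35.4 CPM per kb in WT. Its CPM were 388, 5.65 and 0.740 in WT and 1813, 1042 and 3906 in sST2-KO. The log2 fold change of 4.10 ± 1.85 (SE) did not pass the test with all libraries (adjusted p = 0.155, edgeR) and passed without WT replicate 1 (adjusted p = 0.0258). Ttn encodes titin, the spring that spans the half-sarcomere, and had 107, 1.60 and 0.616 CPM in WT and 510.2, 189.6 and 985 CPM in sST2-KO. Neb encodes nebulin, which runs along the thin filament, and had 44.8, 2.83 and 2.34 CPM in WT and 190.0, 77.4 and 352 CPM in sST2-KO. Both followed Acta1 across the libraries, with log2 fold changes of 3.95 ± 1.68 and 3.62 ± 1.18 (adjusted p = 0.134 and 0.0672, edgeR).

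Mybpc1, the slow-type myosin-binding protein C that fast fibers also make, had 39.7, 0.189 and 0.123 CPM in WT and 195, 82.5 and 354 CPM in sST2-KO (log2 fold change 3.97 ± 1.62, adjusted p = 0.124, edgeR). Cacna1s, the voltage sensor that triggers calcium release, had 6.62, 0 and 0 CPM in WT and 33.7, 18.2 and 75.4 CPM in sST2-KO (4.21 ± 1.32, adjusted p = 0.0611, edgeR). Tcap, which anchors titin at the Z-disc, had 12.9, 0.189 and 0.493 CPM in WT and 57.5, 28.7 and 157 CPM in sST2-KO (4.14 ± 1.28, adjusted p = 0.0591, edgeR). These genes too were seen in WT replicate 1 and close to absent from the other WT libraries.

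Tpm1, Tpm2 and Tpm3 encode tropomyosins, which cover the thin filament, and these genes also give rise to forms made outside skeletal muscle. Tpm1 had 123, 97.1 and 78.9 CPM in WT and 403, 264 and 677 CPM in sST2-KO, and rose by a log2 fold change of 2.17 ± 0.38 (adjusted p = 0.0154, edgeR). Tpm2 had 138, 24.9 and 25.3 CPM in WT and 531, 264 and 1163 CPM in sST2-KO (3.38 ± 0.86, adjusted p = 0.0339, edgeR). Tpm3 had 250.4, 211 and 202 CPM in WT and 346, 522 and 702 CPM in sST2-KO (1.24 ± 0.30, adjusted p = 0.0291, edgeR). All WT libraries held these genes, with the closest agreement for Tpm3. Mb encodes myoglobin, an oxygen store of muscle that brown fat can also express, and had 63.1, 78.9 and 30.8 CPM in WT and 128, 132 and 211 CPM in sST2-KO (1.44 ± 0.37, adjusted p = 0.0359, edgeR). Actn2, the α-actinin of all striated fibers, had 31.4, 28.8 and 5.30 CPM in WT and 90.7, 49.0 and 185 CPM in sST2-KO (2.30 ± 0.70, adjusted p = 0.0557, edgeR). Mb and Tpm3 were no longer called without WT replicate 1 (adjusted p = 0.0737 and 0.0510, edgeR). Neither Mb nor any of the tropomyosin genes was called without WT replicate 2 or without WT replicate 3. For Mb and Actn2, WT replicate 2 lay next to WT replicate 1 rather than next to WT replicate 3.

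For each of the 6 slow fiber genes, the groups overlapped. Their sum was 153, 2.54 and 4.32 CPM in WT and 250, 49.4 and 835 CPM in sST2-KO, so WT replicate 1 exceeded sST2-KO replicate 2. The means were 53.3 ± 86.4 and 378 ± 408 CPM (SD, n = 3), and the mean log2 difference was 4.06 (p = 0.2, exact permutation test). Of the 6 genes, 0 were called by edgeR or DESeq2, where 9.04% and 11.0% of all genes tested were called higher. In edgeR, 0 of the 6 had an unadjusted p under 0.05, and the median log2 fold change was 2.56. Within sST2-KO, replicate 3 held 16.9 times the slow sum of replicate 2, against 4.39 times for the fast sum.

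Myh7, the slow myosin heavy chain that the heart also uses, had 49.9, 0.0942 and 0 CPM in WT and 99.2, 19.7 and 384 CPM in sST2-KO (log2 fold change 3.32 ± 1.86, adjusted p = 0.240, edgeR). Myl2, the slow regulatory light chain, had 14.8, 0 and 0 CPM in WT and 18.1, 5.70 and 97.3 CPM in sST2-KO (3.00 ± 1.64, adjusted p = 0.230, edgeR). Myl3, the slow essential light chain, had 11.6, 0.471 and 2.59 CPM in WT and 13.3, 2.37 and 46.7 CPM in sST2-KO (2.08 ± 1.19, adjusted p = 0.251, edgeR). Each was lowest among the sST2-KO libraries in replicate 2, where it lay under WT replicate 1, and Myl3 there lay under WT replicate 3 as well. The slow troponins Tnnt1, Tnni1 and Tnnc1 showed the same order. Tnnt1 had 39.3, 0.754 and 0.986 CPM in WT and 58.1, 10.9 and 151 CPM in sST2-KO (2.41 ± 1.44, adjusted p = 0.267, edgeR). Tnni1 had 14.7, 0.189 and 0.123 CPM in WT and 25.0, 5.34 and 69.4 CPM in sST2-KO (2.70 ± 1.45, adjusted p = 0.222, edgeR). Tnnc1 had 22.7, 1.04 and 0.616 CPM in WT and 36.2, 5.34 and 86.7 CPM in sST2-KO (2.38 ± 1.34, adjusted p = 0.242, edgeR). Without WT replicate 1, 4 of the 6 were called higher, where 7.47% of all genes were called higher and 6.74% lower. Their adjusted p was 0.0301 for Myh7, 0.0344 for Tnnt1, 0.0327 for Tnni1 and 0.0433 for Tnnc1 (edgeR). Myl2 and Myl3 were not called (adjusted p = 0.0504 and 0.110, edgeR).

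**Figure D3:**
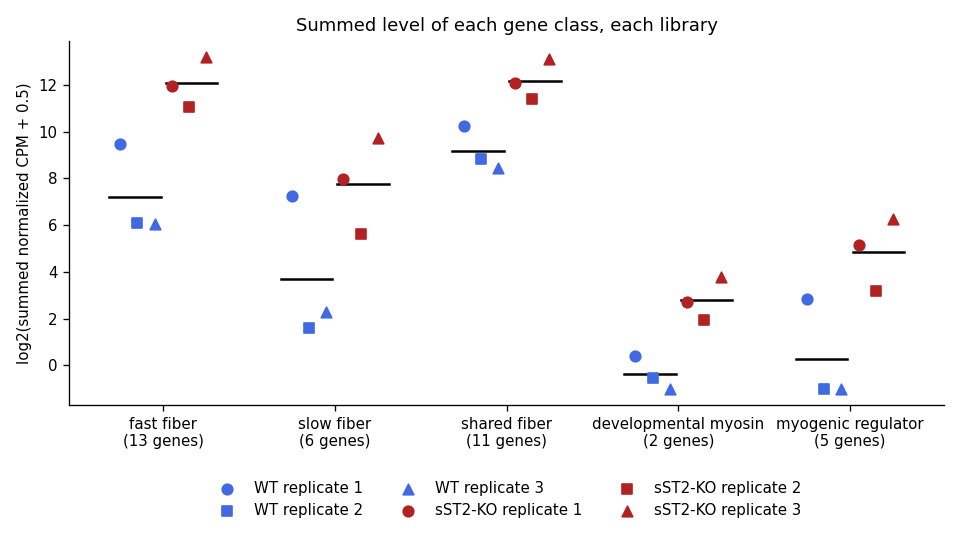
Summed level of each gene class in each library as log2(summed normalized CPM + 0.5), with WT in blue, sST2-KO in red and the group mean on this scale as a black line. The groups overlap for the slow fiber class, where WT replicate 1 (153 CPM) lies above sST2-KO replicate 2 (49.4 CPM), and not for the other 4 classes.

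The ratio of slow to fast genes asks about the kind of muscle transcript and not about its amount. The log2 ratio of the slow sum to the fast sum, each with 0.5 CPM added, was -2.23, -4.49 and -3.79 in WT and -4.00, -5.41 and -3.48 in sST2-KO. The groups overlapped and the difference of -0.79 did not hold up against the spread (p = 0.5, exact permutation test). Leaving out single libraries moved it from -0.16 without WT replicate 1 to -1.29 without WT replicate 2, with p of 0.4 to 1.0 (exact permutation test). With Mybpc1 and Tpm3 counted as slow genes, the difference was -2.97 (p = 0.1, exact permutation test). Tpm3, which is also made outside muscle, then set most of the slow sum in WT replicates 2 and 3. It had 211 and 202 CPM there, against 2.54 and 4.32 CPM for the sum of the 6 slow genes. Since Myl1 dominated the fast sum of WT replicates 2 and 3, the ratio was also taken without it, a choice made after the values were seen. It was then -2.05, -2.47 and -0.71 in WT and -3.92, -5.28 and -3.41 in sST2-KO, without overlap, a difference of -2.45 (p = 0.1, the smallest value this exact permutation test allows). Limited to the troponins, which exist as slow and fast genes for each subunit, it was -1.92, -1.20 and -0.22 in WT and -3.69, -4.88 and -3.36 in sST2-KO. That difference was -2.86 (p = 0.1, exact permutation test), and this restriction was also chosen after the values were seen.

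Within single pairs, the slow gene's share of the pair's reads was lower in each sST2-KO library than in WT replicate 1. For troponin T, Tnnt1 took 19.8% of 2129 reads in WT replicate 1 (95% exact binomial interval 18.1 to 21.5%). The share in sST2-KO was 6.42% (6.01 to 6.86%), 3.05% (2.46 to 3.72%) and 8.14% (7.75 to 8.54%). WT replicates 2 and 3 held only 35 and 10 reads of this pair, with slow shares of 22.9% (10.4 to 40.1%) and 80.0% (44.4 to 97.5%). For troponin C, the slow share was 31.0%, 37.9% and 27.8% in WT and 11.0%, 3.47% and 11.6% in sST2-KO, with 29 and 18 reads behind the values of WT replicates 2 and 3. For troponin I it was 15.3%, 16.7% and 33.3% in WT and 5.84%, 3.37% and 8.13% in sST2-KO, with 12 and 3 reads in WT replicates 2 and 3. The groups thus did not overlap for any of the troponin pairs. The intervals, which cover counting error only, are wide in WT replicates 2 and 3, which held few of these reads.

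The myosin pairs gave another picture in the WT libraries that held few muscle reads. Myl2 took 25.5% of its pair with Mylpf in WT replicate 1, 0 of 31 reads in WT replicate 2 and 0 of 13 in WT replicate 3, against 7.93%, 3.73% and 15.8% in sST2-KO. Upper limits of the 95% intervals for the shares at 0 were 11.2% and 24.7%. Myl3 took 12.4%, 0.909% and 4.23% of its pair with Myl1 in WT and 5.50%, 1.32% and 9.63% in sST2-KO, where the groups overlapped. Myh7 took 20.2% of the adult heavy chain reads in WT replicate 1 and 6.68%, 2.40% and 9.75% in sST2-KO, while WT replicates 2 and 3 held only 26 and 2 heavy chain reads.

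**Figure D4:**
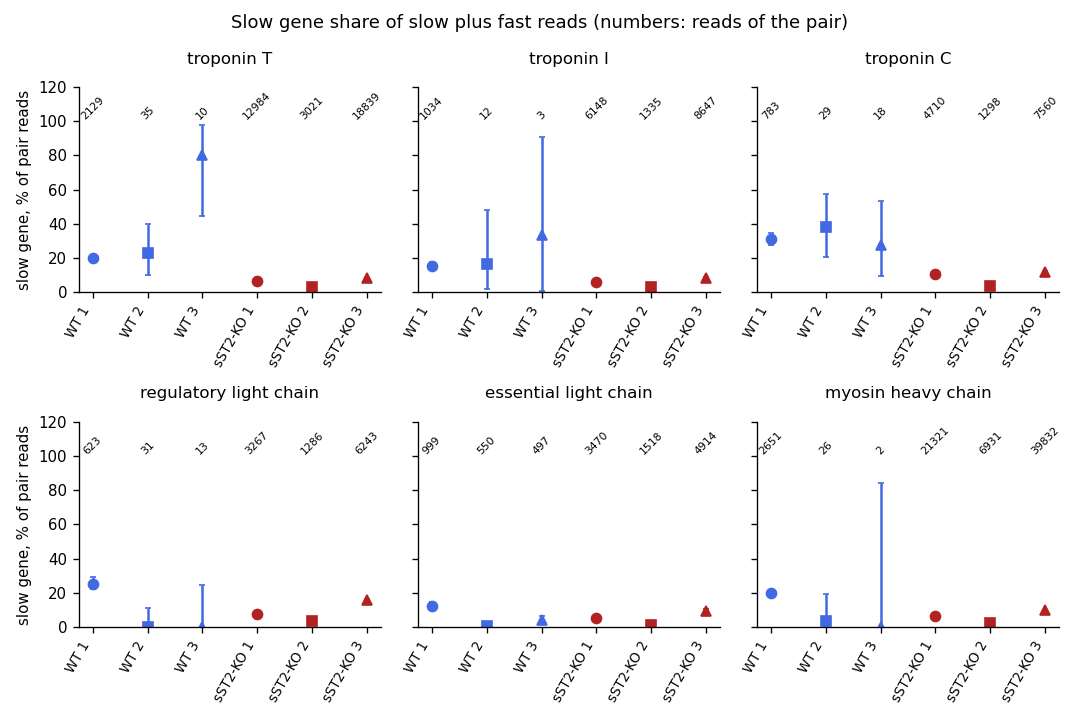
Share of the slow gene among the reads of each slow and fast pair in each library, in percent, with 95% exact binomial intervals and the reads of the pair printed above each point. For the troponins all sST2-KO shares (3.05 to 11.6%) lie below all WT shares (15.3 to 80.0%), and the WT points with few reads have wide intervals.

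Per kb of exon, Myh4 was the leading adult heavy chain in each library with more than 2 reads. It took 61.8% of the adult heavy chain level in WT replicate 1 and 80.8%, 69.4% and 83.5% in sST2-KO. Myh1 followed with 20.4% and with 12.9%, 25.2% and 8.80%. Myh2 took 2.28% in WT replicate 1 and 1.58%, 3.70% and 0.808% in sST2-KO. The slow Myh7 took 15.5% in WT replicate 1 and 4.76%, 1.76% and 6.91% in sST2-KO. In sST2-KO replicate 2, the lowest of the sST2-KO libraries in slow genes, Myh1 and Myh2 held larger shares than in the other sST2-KO libraries and in WT replicate 1.

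**Figure D5:**
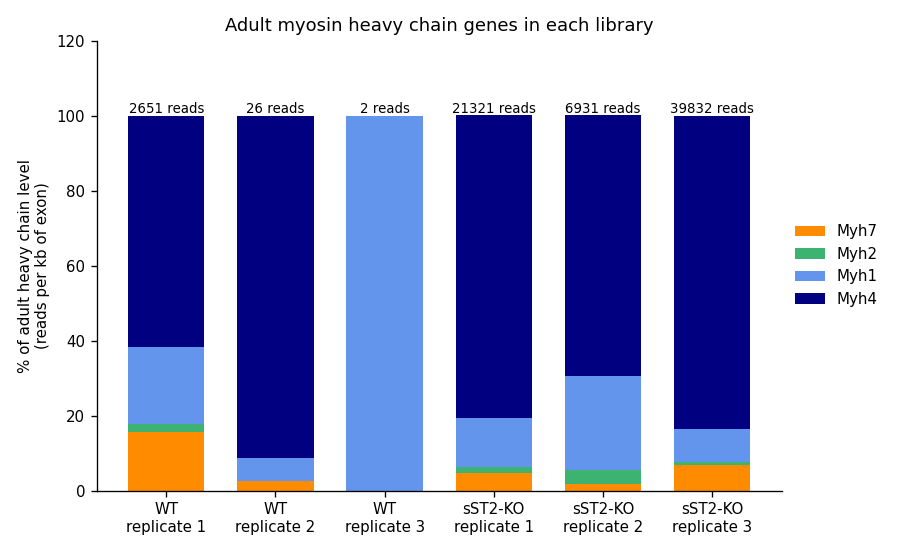
Share of each adult myosin heavy chain gene in the adult heavy chain level per kb of exon, in percent, for each library, with the number of reads above each bar. Myh4 takes 61.8% in WT replicate 1 and 69.4 to 83.5% in sST2-KO, and the bars of WT replicates 2 and 3 rest on 26 and 2 reads.

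To set aside the amount of muscle transcript, counts were also expressed per 1000 counts of Acta1 in the 4 libraries with many muscle reads, WT replicate 1 and the sST2-KO libraries. The other fast and shared genes ranged over 1.13-fold to 3.59-fold. The narrowest was Cacna1s, which stood at 17.1 in WT replicate 1 and at 18.6, 17.4 and 19.3 in sST2-KO, and Mylpf ranged over 1.26-fold, Tnnc2 over 1.30-fold and Tnnt3 over 1.40-fold. The widest were Tpm3 (3.59-fold), Myh2 (3.46-fold), Mb (3.01-fold), Casq1 (2.75-fold) and Pvalb (2.61-fold). Myh4 lay between, from 341 in WT replicate 1 to 617, 495 and 787 in sST2-KO (2.31-fold). The slow genes ranged over 6.80-fold for Myh7 to 13.1-fold for Myl3. Tnnt1, for example, stood at 101 in WT replicate 1 and at 32.1, 10.5 and 38.8 in sST2-KO, and all 6 slow genes were highest in WT replicate 1 and lowest in sST2-KO replicate 2. With a single WT library that held many muscle reads, the relation to Acta1 cannot be tested between genotypes.

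Both developmental myosins rose, from very low counts. Myh3, the embryonic heavy chain, had 5, 2 and 0 counts in WT and 60, 20 and 58 in sST2-KO (log2 fold change 4.07 ± 0.73, adjusted p = 0.0159, edgeR). Myh8, the perinatal heavy chain, had 4, 0 and 0 counts in WT and 26, 8 and 76 in sST2-KO (4.56 ± 1.20, adjusted p = 0.0376, edgeR). Every sST2-KO library held more of each than every WT library. Neither gene was called without WT replicate 2 or without WT replicate 3, and the call of Myh8 was also lost without WT replicate 1 (adjusted p = 0.0575, edgeR). Both genes flank the fast cluster, Myh3 at chr11:66969126-66993117 and Myh8 at chr11:67167746-67199462 (GRCm39, plus strand). Next to the adult heavy chains they stayed minor. Their log2 ratio to the 4 adult heavy chains was -7.53 in WT replicate 1 and -7.84, -7.75 and -8.16 in sST2-KO. In WT replicates 2 and 3 it was -2.10 and -0.58, values that the 0.5 CPM added to both sums largely sets, since these libraries held 2 and 0 developmental reads. The difference between the groups was -4.51 (p = 0.1, exact permutation test), and with 0.1 CPM added instead it was -3.69 (p = 0.3, exact permutation test), so the lack of overlap rests on the value added.

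Myogenic regulators are the transcription factors that commit cells to muscle and drive their differentiation. Their sum was 6.72, 0 and 0 CPM in WT and 35.5, 8.54 and 75.8 CPM in sST2-KO, without overlap, and the mean log2 difference was 4.58 (p = 0.1, exact permutation test). Most of this was Myf6 (MRF4), the regulator kept on in mature fibers, with 64, 0 and 0 counts in WT and 445, 55 and 676 in sST2-KO. Its normalized levels of 5.97 CPM in WT replicate 1 and 6.53 CPM in sST2-KO replicate 2 were close, and the log2 fold change of 4.07 ± 1.42 (SE) did not pass the test (adjusted p = 0.0820, edgeR). Without WT replicate 1 it did (adjusted p = 0.0343, edgeR). Myog, which drives the terminal differentiation of myoblasts, had 7, 0 and 0 counts in WT and 50, 12 and 68 in sST2-KO, and rose by a log2 fold change of 4.00 ± 1.06 (adjusted p = 0.0382, edgeR).

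The regulators of earlier stages were close to the limit of detection. Myod1, which commits cells to muscle, had 0 counts in all WT libraries and 8, 1 and 11 in sST2-KO, at least 5.97-fold higher when 3 counts over the WT group are taken as the floor. Pax7, the mark of satellite cells, had 0 counts in all WT libraries and 2, 2 and 7 in sST2-KO, at least 3.28-fold higher. Myf5, which marks the precursors of muscle and brown fat and lies next to Myf6 on chromosome 10, had 1, 0 and 0 counts in WT and 4, 2 and 6 in sST2-KO. The ratio of its summed levels was 10.7, with a 95% counting interval of 1.59 to 459. None of these was deep enough for the test across genes.

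The log2 ratio of the regulators to the 30 genes of mature fibers was -8.17, -10.03 and -9.70 in WT and -7.89, -9.06 and -7.95 in sST2-KO. The difference was 1.00, with overlap (p = 0.2, exact permutation test). It was 2.54 with 0.1 CPM added (p = 0.2) and 0.38 per kb of exon (p = 0.5, exact permutation tests), and ranged from 0.63 to 1.56 with a WT library left out. Without Myf6, a choice made after the values were seen, the ratio was -10.70, -10.03 and -9.70 in WT and -10.75, -10.91 and -10.94 in sST2-KO, a difference of -0.72 in the opposite direction (p = 0.1, exact permutation test). In WT replicates 2 and 3 the regulator sum was 0, so the 0.5 CPM added to it sets both versions. Per 1000 counts of Acta1, Myog stood at 1.68 in WT replicate 1 and at 1.92, 1.37 and 1.72 in sST2-KO, and Myf6 at 15.4 and at 17.1, 6.26 and 17.1. Myf6 was thus lower against actin in sST2-KO replicate 2, which also had the lowest slow fiber sum of the sST2-KO libraries.

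Other genes of muscle, from 5 lists with 72 genes that hold none of the 37, were measured in the same test. Of the 63 tested, 28 were called higher and 1 lower, where 9.04% and 7.1% of all genes were, and the median log2 fold change was 3.00. Without WT replicate 1, 42 were called higher, where 7.47% of all genes were, without WT replicate 2 only 2 and without WT replicate 3, 0. Among all genes, 391 were called higher without WT replicate 2 and 36 without WT replicate 3. Genes of excitation-contraction coupling, which turn the nerve signal into calcium release, had 9 of 15 called higher and a median of 3.67. Atp2a1, the calcium pump of fast fibers and the most abundant of them, had 260.5, 4.52 and 3.33 CPM in WT and 1187, 629.8 and 2734 CPM in sST2-KO (log2 fold change 4.08 ± 1.63, adjusted p = 0.117, edgeR). Ryr1, the calcium release channel, had 38.9, 0.942 and 0.123 CPM in WT and 136, 63.7 and 341 CPM in sST2-KO (3.75 ± 1.51, adjusted p = 0.120, edgeR). Both repeated the order of libraries seen for the fast sarcomere genes. Srl, the calcium-binding protein sarcalumenin, had 21.3, 5.56 and 12.9 CPM in WT and 45.6, 33.9 and 112 CPM in sST2-KO and rose (2.26 ± 0.59, adjusted p = 0.0367, edgeR).

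Genes of the Z-disc and M-band, where filaments are anchored, had 9 of 18 called higher, where 9.04% of all genes tested were. Their median log2 fold change was 3.54. Des, the intermediate filament desmin that smooth muscle also makes, rose from 208, 62.3 and 134 CPM in WT to 772, 289 and 1635 CPM in sST2-KO (log2 fold change 2.74 ± 0.69, adjusted p = 0.0335, edgeR). Without WT replicate 1, Des was not called (adjusted p = 0.0508, edgeR). Myot, which encodes the Z-disc protein myotilin, had a log2 fold change of 4.03 and did not pass (adjusted p = 0.107, edgeR). Genes of muscle energy supply had 6 of 9 called higher and 1 lower, where 9.04% and 7.1% of all genes tested were. Their median was 3.69. Pygm, the muscle glycogen phosphorylase, had 35.5, 11.3 and 6.41 CPM in WT and 255, 137 and 613 CPM in sST2-KO (4.23 ± 0.81, adjusted p = 0.0175, edgeR). Ckm, the muscle creatine kinase, had 126, 1.89 and 0 CPM in WT and 689, 392 and 1792 CPM in sST2-KO (4.49 ± 1.89, adjusted p = 0.131, edgeR). Pfkm, the muscle phosphofructokinase, had 58.3, 74.7 and 78.4 CPM in WT and 164, 94.5 and 323 CPM in sST2-KO, and WT replicate 1 was here the lowest library (1.46 ± 0.42, adjusted p = 0.0494, edgeR). Pfkm was not called with RLE factors (adjusted p = 0.0521, edgeR) or without WT replicate 1 (adjusted p = 0.122, edgeR). Fbp2, the muscle fructose bisphosphatase, was the gene called lower, with 9.70, 15.5 and 19.0 CPM in WT and 7.46, 5.58 and 7.41 CPM in sST2-KO (-1.10 ± 0.31, adjusted p = 0.0441, edgeR). That call was lost with total counts (adjusted p = 0.0888, edgeR) and when any library other than WT replicate 1 was left out.

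Genes of the neuromuscular junction and of the response of muscle to denervation had 2 of 11 tested called higher, Chrna1 and Runx1. Of all genes tested, 9.04% were called higher. The median of this list was 1.36. Trim63 and Fbxo32 encode the ubiquitin ligases MuRF1 and atrogin-1, which take part in muscle wasting. Trim63 had 56.0, 0.377 and 2.34 CPM in WT and 424, 22.9 and 366 CPM in sST2-KO (log2 fold change 3.78 ± 1.65, adjusted p = 0.142, edgeR). Fbxo32 had 51.9, 5.37 and 12.9 CPM in WT and 273, 39.9 and 327 CPM in sST2-KO (3.18 ± 0.99, adjusted p = 0.0605, edgeR). In sST2-KO replicate 2 both lay under WT replicate 1. Chrnb1, a receptor subunit of the junction, had a log2 fold change of -0.19 (adjusted p = 0.549, edgeR), which was 0.08 with total counts in place of TMM. Chrng, the fetal subunit of the acetylcholine receptor, had 0 counts in all WT libraries and 11, 1 and 4 in sST2-KO, at least 4.77-fold higher against the same floor.

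Genes of myogenic differentiation had 2 of 10 tested called higher, where 9.04% of all genes were, and a median of 1.07. Mef2c, a partner of the myogenic factors, had 19.5, 7.07 and 7.15 CPM in WT and 29.5, 26.8 and 48.5 CPM in sST2-KO (log2 fold change 1.63 ± 0.45, adjusted p = 0.0433, edgeR). Cdh15, the cadherin of muscle precursors, was the other (4.85 ± 1.04, adjusted p = 0.0220, edgeR). Mef2a and Mef2d, which many tissues express, had log2 fold changes of 0.21 and -0.24 (adjusted p = 0.402 and 0.396, edgeR), and the latter was 0.03 with total counts. Mymk, the membrane protein of myoblast fusion, had 0 counts in all WT libraries and 14, 2 and 12 in sST2-KO, at least 8.35-fold higher.

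Markers of the other cell types that share sarcomere genes or lie in the tissue were summed beside these values. Of all genes tested, 9.04% were called higher and 7.1% lower. Of 10 heart genes, Myl7 had no count in any library, and the sum was 4.71 to 7.56 CPM in WT and 7.48 to 22.4 CPM in sST2-KO, with 1 of the 4 tested called higher. The 9 smooth muscle genes summed to 318 to 347.5 CPM in WT and 213 to 337 CPM in sST2-KO, with 1 called higher and a median log2 fold change of -0.52. Besides the brown adipocyte genes, the sum of 6 genes of all adipocytes, most of it Fabp4, lay at 4894 to 9843 CPM against 13510.0 to 16740.0 CPM in WT, with 1 of the 6 called lower. The sum of 6 macrophage genes, most of it Lyz2, lay at 1002 to 4783 against 449 to 666 CPM, with 2 of the 6 called higher. That of 5 T cell genes lay at 64.6 to 91.5 against 6.81 to 10.1 CPM, with 4 called higher. Fibroblast genes overlapped, at 531 to 3110.0 against 753 to 1869 CPM, as did endothelial genes, at 876 to 1350.0 against 894 to 1159 CPM, and 6 Schwann cell genes lay at 26.1 to 51.4 against 65.4 to 81.4 CPM. The part of skeletal muscle next to the BAT in these values, and that of each cell type that moved with them, was not tested.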

How the data were processed

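BAT RNA-seq libraries from 3 WT and 3 sST2-KO mice were compared, grouped by the sample titles. The authors aligned paired-end reads to mm39 with HISAT2 2.2.1 (FastQC 0.12.1 is also named in the submitters' processing notes), counted them with htseq-count and deposited raw counts per gene symbol. The use of strand and the htseq-count version are not given in the sources used here. The table holds 35976 rows, 11377 of them without a count, and each library sums to 8159442 to 12874809 counts. Pairs of libraries within a group had chi-square values of 37.1 to 105 per degree of freedom and so were not duplicates.

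Genes were kept by filterByExpr (14542), scaled by TMM and tested with edgeR 4.0.16 in R 4.3.3 (glmQLFit and glmQLFTest, no covariate) with Benjamini-Hochberg adjustment over all genes tested. Calls needed an adjusted p under 0.05 together with a more than 2-fold difference, where the paper's methods name DESeq2, significance and the same fold and give no adjusted threshold for these data. The SE of a log2 fold change is its size over the square root of F, and the common biological coefficient of variation was 0.325. Sums and ratios were compared on a log2 scale with 0.5 CPM added, by exact two-sided permutation tests in scipy 1.17.1. Levels per kb use merged exons of GRCm39, the build of mm39. A group at 0 counts was set to a floor of 3 counts over the group for bounds. Intervals of shares are exact binomial (Clopper-Pearson, 95%) and cover counting error only, since reads carry no molecular identifiers. As alternatives, DESeq2 1.42.0, scaling by RLE or by total counts, other filters, another pseudocount, the replicate number as a block and the omission of each library were run.

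The members and lists were chosen with earlier results of these data known. All 37 members were named, and from each companion list the 3 genes of highest mean CPM, genes called against the list's median and some picked after their values were seen (Chrna1, Runx1, Chrng, Cdh15 and Mymk). A gene that this rule names is not reported here. In the table, Mymk is listed under an older symbol, and the T cell marker Trac could not be matched. Where nothing says that libraries came from separate extractions, p-values measure the spread between these samples. Of the steps, only the edgeR test was tried on simulated data, in which all genes shared the common biological coefficient of variation. Figures were drawn with matplotlib 3.10.9.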

Additional observations from a re-analysis of the deposited data

How the results depend on the processing

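All 34 muscle genes tested kept a positive log2 fold change under each alternative that tested them. The number called higher, 11, was 11 with RLE factors, 14 with total counts, 9 of 11 tested with at least 10 counts in every sample, 20 of 37 without a filter and 18 with DESeq2 (11.0% of all genes). With each library left out in turn it ranged from 0 to 28, highest without WT replicate 1, and the median log2 fold change of 3.97 from 3.26 to 7.99. Without WT replicate 3 the test called 36 genes higher among all genes, and without WT replicate 2 it called 391. For the 28 other muscle genes called higher, the count was 17 with at least 10 counts in every sample and 0 to 42 with a library left out. The gene called lower, Fbp2, gave a count of 0 with total counts and of 0 to 1 with a library left out. Among the genes named, those that reversed were Chrnb1 (0.0776) and Mef2d (0.0256), both with total counts, which move the median of all genes to 0.293. The ratio of regulators to mature fiber genes reversed to -0.723 without Myf6.

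The replicate numbers do not pair the samples, since the correlations of same-numbered deviations were -0.0583, 0.215 and -0.312. With a replicate block, 0 of the 34 genes, 0 of the other muscle genes called higher and 0 of those called lower were called, and 0 of all genes, and 27 of the 34 had an unadjusted p under 0.05. In exact tests with the block, the smallest possible p is 0.25. Low counts limit Myod1, Myf5 and Pax7, and the few muscle reads of WT replicates 2 and 3 limit the ratios of these libraries.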
